A study of Mus musculus with 18 samples.

Results

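The levels of 9 genes of the acute phase response and of metal binding were examined in the mouse spleen: orosomucoid 1 (Orm1), haptoglobin (Hp), hemopexin (Hpx), the serum amyloid A genes Saa1, Saa2 and Saa3, leucine-rich alpha-2-glycoprotein 1 (Lrg1), and the metallothioneins Mt1 and Mt2. They were taken by symbol from a table of 19320 genes and were divided into genes that follow albumin (Alb) and genes that do not. The 9 symbols were selected on earlier results of the same table, among them the levels of Orm1, Hp and Hpx in STZ against Con, A10 against Con and A10-FMT against STZ, and the division by Alb was chosen by the levels in all 18 libraries. For this reason the values of STZ against Con, those of Orm1, Hp and Hpx in A10 against Con and A10-FMT against STZ, and the correlations with Alb are given as descriptions. All other comparisons share libraries with these. The values of Orm1, Hp and Hpx in A10-FMT against Con-FMT and in the interaction of streptozotocin and AOS are likewise descriptions. So are the values of all members in the comparisons of STZ-A10, A10-FMT and Con-FMT with STZ, which reuse the STZ libraries.

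Poly(A) RNA was sequenced from spleens of ICR mice aged 10 weeks, with 3 libraries in each of 6 groups. Con mice were controls and A10 mice received alginate oligosaccharide (AOS) at 10 mg/kg. STZ mice received streptozotocin, a toxin of the insulin-producing beta cell, and STZ-A10 mice received streptozotocin and AOS at 10 mg/kg. A10-FMT and Con-FMT mice received streptozotocin and then a transplant of gut microbiota from donors given AOS at 10 mg/kg or from control donors, so that 4 groups share the streptozotocin treatment. Streptozotocin makes the mice a chemical model of type 1 diabetes, and the transplants were made from pooled intestinal content of the donors. Levels are given as RPKM, read counts scaled to gene length and library size, and can be compared between genes.

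In the acute phase response, inflammatory cytokines such as interleukin 6 act through STAT3 and C/EBP factors to raise secreted proteins that bind hemoglobin, heme, lipids and drugs. The liver is their main source, although haptoglobin, LRG1 and the serum amyloid A proteins are also made in neutrophils, macrophages, endothelium or fat. Metallothioneins are small cysteine-rich proteins that bind zinc and copper, and their genes respond to metals through the factor MTF1 and to glucocorticoids.

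The members lie on 4 chromosomes in GRCm38 (GENCODE M21), as protein-coding genes. Mt2 (chr8:94172664-94173568, plus strand) and Mt1 (chr8:94179082-94180327, plus strand) are neighbours with 5513 bases between them, and Hp lies on the same chromosome (chr8:109575128-109579172, minus strand). Saa3 (chr7:46711998-46715700, minus strand), Saa1 (chr7:46740497-46742980, minus strand) and Saa2 (chr7:46751790-46754313, plus strand) form a cluster on chromosome 7, where Hpx also lies (chr7:105591613-105600137, minus strand). Orm1 is at chr4:63344560-63348163 on the plus strand and Lrg1 at chr17:56119678-56122001 on the minus strand.

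The RefSeq promoters of Mt1 and Mt2 are shown because these 2 genes had an r of 0.952 with each other over the libraries and because the metal response element is the best known control element of the pair. Each sequence runs 5′ to 3′ on the plus strand from 250 bases before to 50 bases after the start that RefSeq annotates (GRCm38.p6), Mt1 at chr8:94178839-94179138 and Mt2 at chr8:94172368-94172667. Capitals mark the core of the metal response element, TGCACNC or TGCGCNC, on either strand.
Mt1 promoter: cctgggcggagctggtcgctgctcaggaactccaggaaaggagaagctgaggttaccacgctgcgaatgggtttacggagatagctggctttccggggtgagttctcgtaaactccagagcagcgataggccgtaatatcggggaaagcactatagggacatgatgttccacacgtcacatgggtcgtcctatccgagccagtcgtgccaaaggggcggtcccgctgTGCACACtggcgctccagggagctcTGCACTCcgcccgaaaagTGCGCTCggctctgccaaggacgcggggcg
Mt2 promoter: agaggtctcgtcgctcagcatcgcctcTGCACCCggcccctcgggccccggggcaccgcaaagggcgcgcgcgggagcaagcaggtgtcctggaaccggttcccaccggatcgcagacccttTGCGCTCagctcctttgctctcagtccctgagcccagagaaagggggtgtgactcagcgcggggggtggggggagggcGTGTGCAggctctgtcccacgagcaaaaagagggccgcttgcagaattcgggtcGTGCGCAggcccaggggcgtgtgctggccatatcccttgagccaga
The core was found 3 times for Mt1, starting at -23, 2 and 20 relative to the annotated start, and 4 times for Mt2, starting at -223, -128, -50 and 4. These positions hold for the annotated start only, as the start in use in these spleens was not measured. The sequence TATAAA was found in neither window, and elements outside the windows are not shown. Of 32851 RefSeq promoters of this length, 25.7% held at least 1 core, 1.97% held at least 3 and 0.518% held at least 4. Of the 9 genes, 7 had a promoter in the RefSeq table (all except Orm1 and Hp), and none of those 7 held the STAT palindrome TTCNNNGAA, which 8.30% of promoters held on either strand. The letters found are a description of these windows and not a measurement of binding.

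Reads of near-identical copies limit some of the genes. The Saa1 and Saa2 transcripts were 93.9% identical with a longest shared run of 99 bases, and Orm1 was 91.0% identical to Orm2, with a run of 141 bases, and 86.1% identical to Orm3. Values of Saa1, Saa2 and Orm1 are therefore uncertain as to the copy. Orm2 was at most 0.45 RPKM and Orm3 at most 1.06 RPKM in any library. Mt1 and Mt2 were 70.5% identical over their aligned part, with no shared run over 20 bases.

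The libraries had summed RPKM of 673221 to 884539 and 11532 to 12893 genes at 1 RPKM or more, and the depth in reads is unknown. Globin transcripts took between 10.4% (STZ replicate 1) and 42.7% (A10-FMT replicate 3) of the summed RPKM, with 13.7% in STZ-A10 replicate 1. A10-FMT replicate 3 also had the fewest genes at 1 RPKM or more. Con replicate 1 and Con replicate 2 stood apart in neutrophil transcripts, with S100a8, a neutrophil calcium-binding protein, at 5153.63 and 1315.32 RPKM against 127.68 to 566.82 in the other libraries. Lymphocyte marker genes were present in every group, with summed levels of 1434 to 2776 RPKM over the 11 genes of the list in the table, except A10-FMT replicate 3, which stood apart at 588 RPKM.

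Of the 9 genes, 7 reached 1 RPKM in at least 3 libraries, and were tested, and Saa1 and Saa2 did not. Over the 18 libraries, Mt1 and Mt2 were the most abundant and Saa1 and Saa2 the least, and the highest value of each gene fell in 1 of 5 libraries. Con replicate 1 held the highest Orm1 and Hp, Con replicate 2 the highest Saa1 and Saa2, STZ-A10 replicate 1 the highest Saa3 and Lrg1, A10-FMT replicate 3 the highest Hpx and Mt2, and STZ replicate 1 the highest Mt1. The part of the globin share of these libraries in the highest values was not tested.

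**Figure D1:**
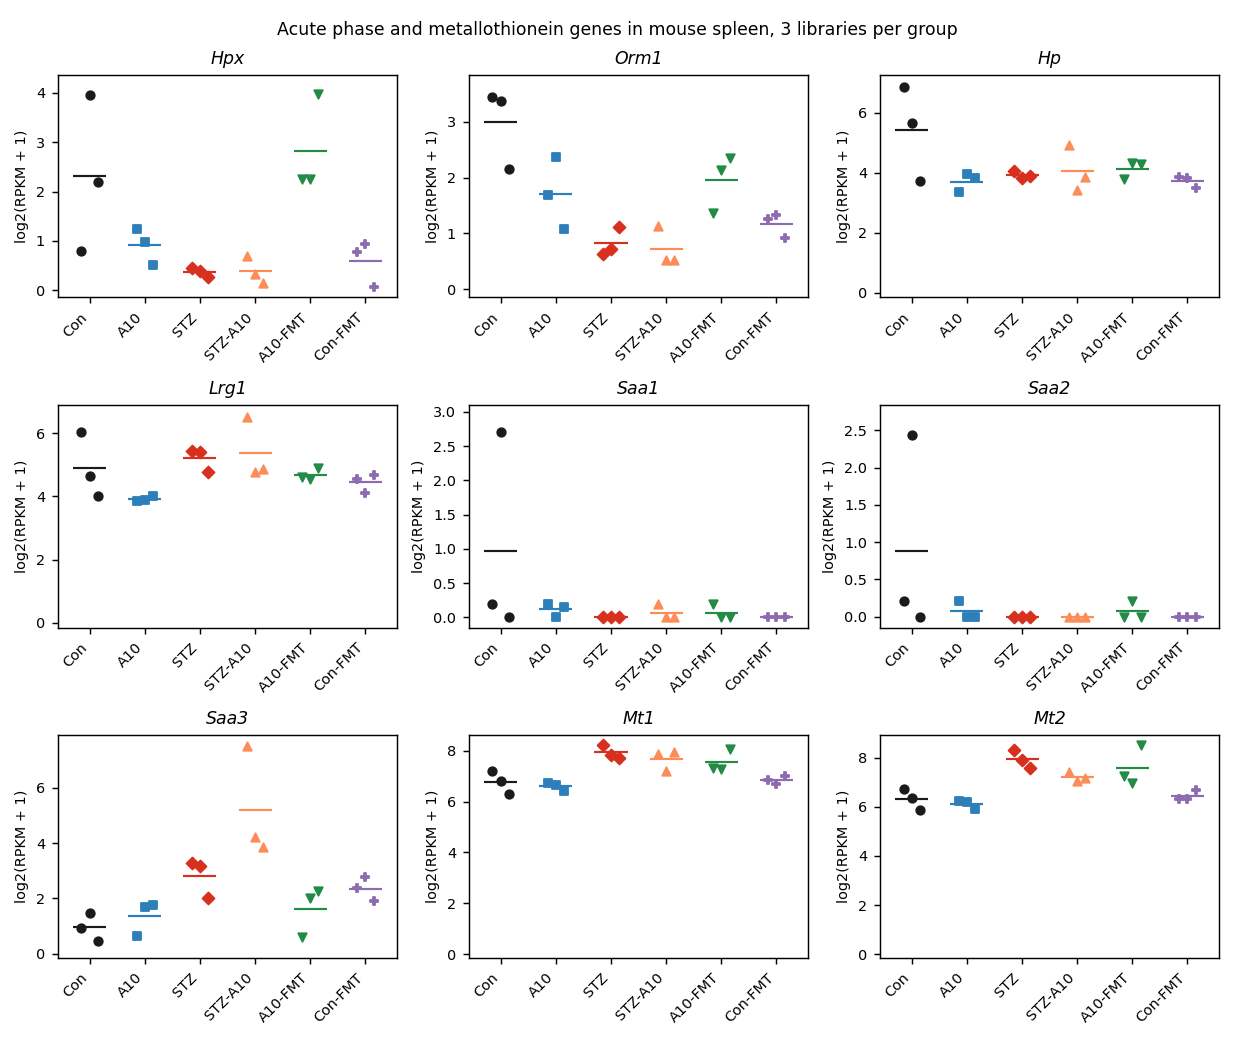
Level of each of the 9 genes in the 18 libraries as log2(RPKM + 1), by group, with the mean of each group's log values as a line. Hpx and Orm1 had their highest group means in Con and A10-FMT, with overlap between groups. Orm1 was 4.17 RPKM in A10 replicate 2, above every A10-FMT library, and Hpx was 0.74 RPKM in Con replicate 1. Saa3 was high in STZ-A10 with 1 library at 182.17 RPKM, Mt1 and Mt2 were high in STZ, and Saa1 and Saa2 stood above 1 RPKM in Con replicate 2 only.

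Of the 9 genes, 2 followed Alb, defined as a Pearson r of at least 0.7 on log2(RPKM + 1) over the 18 libraries, and 7 did not. Hpx had an r of 0.910 (Spearman's rho 0.955) and Orm1 an r of 0.741 (rho 0.847), and the next gene outside the limit was Saa2 at 0.399. Saa1 was at 0.382, Hp at 0.215, Mt2 at -0.224, Lrg1 at -0.353, Mt1 at -0.360 and Saa3 at -0.529. Among the 12904 tested genes other than Alb, 100 reached an r of 0.7 (0.775%). These correlations describe 18 libraries that share their groups and 1 normalization. With each library taken as its deviation from its group mean, Hpx kept an r of 0.826 with Alb and Orm1 had an r of 0.226, so that Orm1 was the less secure of the 2 followers. Orm1 also had an r of 0.692 with the mean of the hepatocyte list and fell under the limit without Con replicate 2, whereas Hpx had an r of 0.940 with that list.

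**Figure D2:**
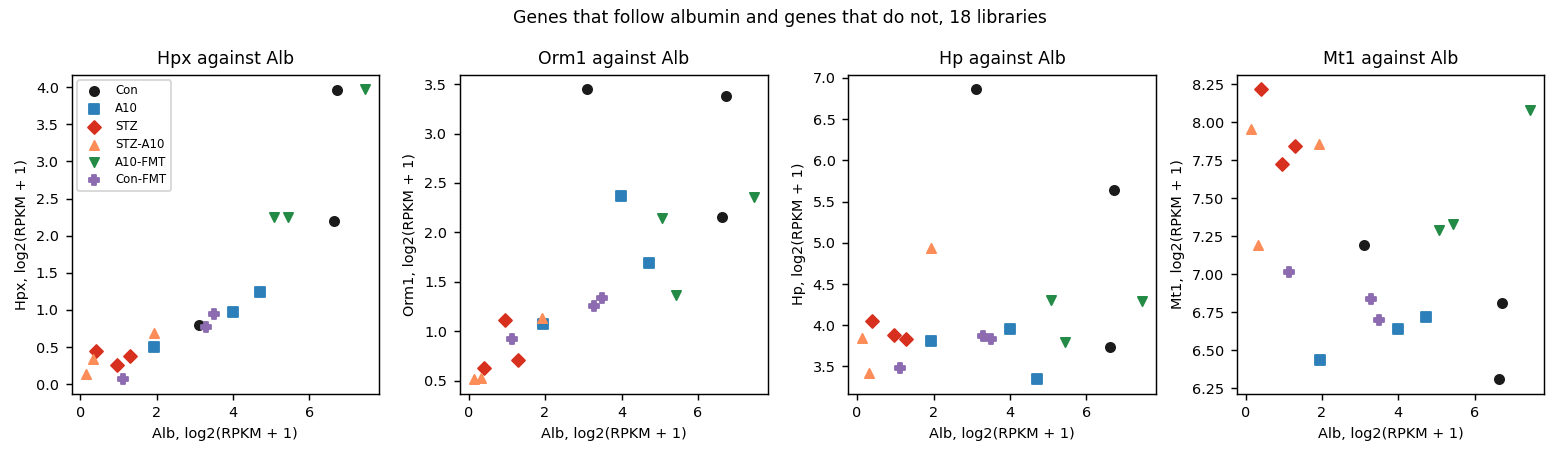
Hpx, Orm1, Hp and Mt1 on the y axes against Alb on the x axis, all as log2(RPKM + 1), with 1 point per library and colours and shapes for the 6 groups. Hpx rises along Alb through all groups (r = 0.910), Orm1 does so with Con replicate 1 lying above (r = 0.741), and Hp (r = 0.215) and Mt1 (r = -0.360) do not.

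Hemopexin, the plasma protein that binds free heme, was 0.74, 14.58 and 3.59 RPKM in the Con libraries and 3.77, 3.78 and 14.71 RPKM in A10-FMT. It was 1.36, 0.97 and 0.42 RPKM in A10 and 0.70, 0.92 and 0.05 RPKM in Con-FMT. It was 0.36, 0.30 and 0.20 RPKM in STZ and 0.62, 0.26 and 0.10 RPKM in STZ-A10. The A10-FMT libraries were all above those of A10, STZ, STZ-A10 and Con-FMT, while Con overlapped with A10-FMT, A10 and Con-FMT. Alb itself was 42.32, 32.58 and 174.72 RPKM in A10-FMT and 7.59, 104.59 and 97.95 RPKM in Con, and 0.32, 1.45 and 0.95 RPKM in STZ. In A10-FMT the Hpx level was 8.91%, 11.6% and 8.42% of the Alb level, and in Con it was 9.75%, 13.9% and 3.67%. It was 5.39%, 6.49% and 14.8% in A10 and 7.96%, 8.92% and 4.20% in Con-FMT. Where Alb was at most 2.79 RPKM it was 112.5%, 20.7% and 21.1% in STZ and 22.2%, 104% and 100% in STZ-A10. The Hpx ratio was thus not constant either.

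The log2 fold change of Hpx on the log2(RPKM + 1) scale was -1.96 (SE 0.591) in STZ against Con, from 6.30 ± 7.31 (SD, n = 3) to 0.287 ± 0.0808 RPKM (SD, n = 3), with no overlap of the libraries. Without Con replicate 2 it was -1.14. It was 2.47 (SE 0.591) in A10-FMT against STZ, with no overlap. The A10-FMT libraries, which helped to choose Hpx, did not overlap with those of Con-FMT either. The log2 fold change there was 2.24 (SE 0.591) and did not pass the adjusted threshold (limma, adjusted p = 0.204). With log2 Alb as a covariate of the fit, the Hpx difference was 0.33 in STZ against Con and -0.07 in A10-FMT against STZ, that is, with the sign turned in both, and 0.57 in A10-FMT against Con-FMT. In A10 against Con the log2 fold change was -1.41 (SE 0.591), and -0.59 without Con replicate 2. In bulk tissue, fewer cells of a type and less RNA per cell cannot be told apart.

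The hepatocyte markers moved with Hpx. All 30 genes of that list were in the table, none was at 0 in every library, and their summed level was 202 to 770 RPKM in Con, 270 to 382 RPKM in A10, 377 to 759 RPKM in A10-FMT and 205 to 289 RPKM in Con-FMT. It was 175 to 231 RPKM in STZ and 178 to 243 RPKM in STZ-A10. Among the 29 tested, 26 were lower in STZ than in Con at an unadjusted p under 0.05 (median log2 fold change -2.02, against -0.01 over all genes), 24 were higher in A10-FMT than in STZ (median 2.08, against -0.15 over all genes) and 21 were higher in A10-FMT than in Con-FMT (median 1.76, against -0.17 over all genes), and none passed the adjusted threshold in these comparisons (limma). Among all genes, 11.1% had an unadjusted p under 0.05 in STZ against Con (limma). This share was 17.2% in A10-FMT against STZ and 23.6% in A10-FMT against Con-FMT. The part of the hepatocyte markers in the levels of Hpx and Orm1 was not tested. The Alb covariate cannot test it, because both genes were classed by their relation with Alb in the same libraries. The 3 genes most like Hpx among 12898 compared were Cyp2d10, a cytochrome P450 (r = 0.983), Hrg, histidine-rich glycoprotein (r = 0.973), and Kng1, kininogen (r = 0.971, and itself on the hepatocyte list).

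Orosomucoid 1, a plasma glycoprotein that carries drugs and steroids, was 9.93, 9.38 and 3.45 RPKM in Con, 2.23, 4.17 and 1.11 RPKM in A10, and 0.55, 0.64 and 1.16 RPKM in STZ. It was 1.2, 0.44 and 0.43 RPKM in STZ-A10, 1.57, 3.41 and 4.12 RPKM in A10-FMT, and 1.38, 1.52 and 0.89 RPKM in Con-FMT. The means ran from Con (7.59 ± 3.59 RPKM, SD, n = 3) through A10-FMT, A10, Con-FMT and STZ to STZ-A10 (0.690 ± 0.442 RPKM, SD, n = 3), and each group overlapped with the next in this order. The Con and STZ libraries did not overlap, nor did those of A10-FMT and STZ. The ratio to Alb was far from constant, from 2.36% of the Alb level in A10-FMT replicate 3 to 131% in Con replicate 1 and 430% in STZ-A10 replicate 3, where Alb was 0.1 RPKM.

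For Orm1 the log2 fold change was -2.17 (SE 0.366) in STZ against Con and -0.99 (limma, adjusted p = 0.328) in STZ-A10 against A10. It was -1.28 (SE 0.366) in A10 against Con and 1.13 (SE 0.366) in A10-FMT against STZ. In A10-FMT against Con-FMT, whose A10-FMT libraries helped to choose Orm1, the log2 fold change was 0.78 (limma, adjusted p = 0.210). With log2 Alb as a covariate it was -1.79 in STZ against Con and 0.71 in A10-FMT against STZ, and with log2 S100a8 as a covariate, an alternative chosen after seeing the data, it was -0.60 in A10 against Con and -1.44 in STZ against Con. Orm1 had an r of 0.810 with S100a8 over the 18 libraries and 0.571 without Con replicates 1 and 2, so it moved with a neutrophil gene as well as with Alb. The genes most like it were Sardh, sarcosine dehydrogenase (r = 0.853), Rab11a, a GTPase of recycling endosomes (r = 0.852), and Adgrg3, an adhesion receptor (r = 0.811).

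Haptoglobin, which binds free hemoglobin, was 115.53, 48.86 and 12.31 RPKM in Con and 9.18 to 29.60 RPKM elsewhere. It was 9.18, 14.52 and 13.01 RPKM in A10, 15.57, 13.31 and 13.70 RPKM in STZ, and 29.60, 9.73 and 13.34 RPKM in STZ-A10. It was 12.87, 18.79 and 18.64 RPKM in A10-FMT and 13.56, 13.22 and 10.14 RPKM in Con-FMT. Con replicates 1 and 2 and STZ-A10 replicate 1 were above the other libraries, which reached at most 18.79 RPKM, and Con replicate 3 lay among the other groups. In the STZ and STZ-A10 libraries, where Alb was at most 2.79 RPKM, Hp was still 9.73 RPKM or more.

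The log2 fold change of Hp was -1.71 (SE 0.543) in A10 against Con and -1.49 (SE 0.543) in STZ against Con. Without Con replicate 1 these were -0.98 and -0.765, and with log2 S100a8 as a covariate they were -0.47 and -0.17. Without Con replicate 3 they were -2.55 and -2.33, and with log2 Alb as a covariate -2.01 and -2.21. The neutrophil list of 23 genes moved with it, with summed levels of 993 to 17550 RPKM in Con and 613 to 2034 RPKM over the other groups and no gene at 0 in every library. Of its 22 tested genes, 21 were lower in A10 than in Con at an unadjusted p under 0.05 (median log2 fold change -1.79, against 0.05 over all genes) and 18 were lower in STZ than in Con (median -1.67), with none past the adjusted threshold (limma). Among all genes, 5.25% had an unadjusted p under 0.05 in A10 against Con and 11.1% in STZ against Con (limma). Hp had an r of 0.850 with S100a8 over all libraries, 0.807 as deviations from group means and 0.247 without Con replicates 1 and 2. The genes most like Hp were Cd177, a neutrophil surface glycoprotein (r = 0.921, on the neutrophil list), F13a1, the coagulation factor XIII A chain (r = 0.916), and Ifitm6, an interferon-induced membrane protein (r = 0.914).

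LRG1, a secreted glycoprotein that modulates TGF-beta signalling and is also stored in neutrophil granules, was 64.88, 23.93 and 15.07 RPKM in Con and 13.44, 13.91 and 15.22 RPKM in A10. It was 42.37, 41.54 and 26.19 RPKM in STZ and 89.29, 26.16 and 28.17 RPKM in STZ-A10. It was 23.56, 22.40 and 28.50 RPKM in A10-FMT and 22.62, 16.36 and 24.75 RPKM in Con-FMT. The A10 libraries were tight and lay below all libraries of Con-FMT, A10-FMT, STZ-A10 and STZ, while Con, at 15.07 to 64.88 RPKM, overlapped with each of the other groups.

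In STZ-A10 against A10 the log2 fold change of Lrg1 was 1.45 (SE 0.452, limma, adjusted p = 0.224) with no overlap, and 0.89 without STZ-A10 replicate 1. In A10 against Con it was -0.97 (SE 0.452, limma, adjusted p = 0.953), and -0.40 without Con replicate 1. Lrg1 and Hp had an r of 0.582 over all libraries and 0.828 as deviations from group means, since STZ-A10 replicate 1 and Con replicate 1 were high in both, whereas Lrg1 had an r of 0.212 with S100a8 over all libraries and 0.493 as deviations from group means. Its most similar genes were Ifitm2, an interferon-induced membrane protein (r = 0.905), Cebpd, a transcription factor of the acute phase response and of the interleukin 6 list (r = 0.897), and BC100530 (r = 0.883).

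**Figure D3:**
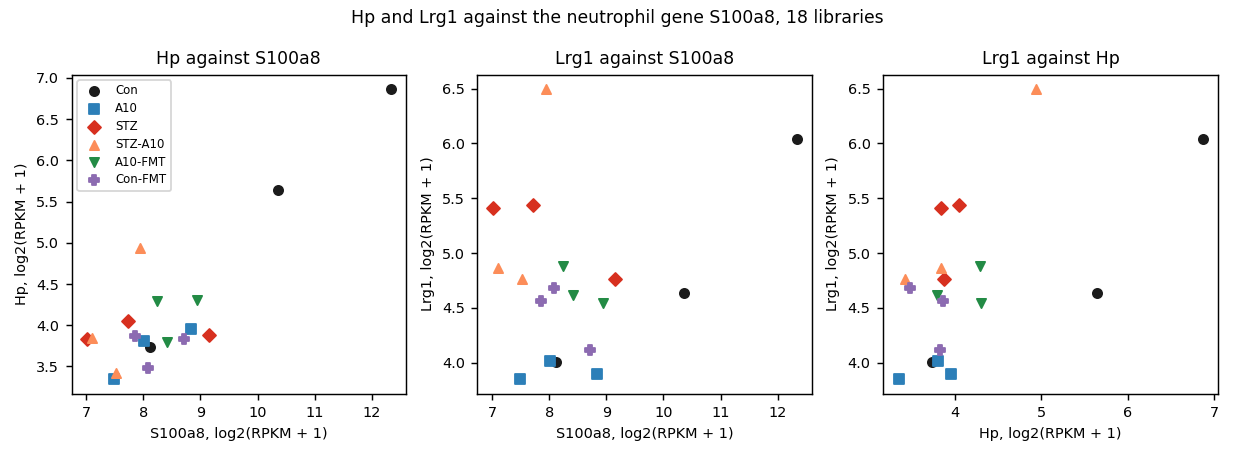
Hp and Lrg1 against S100a8, and Lrg1 against Hp, as log2(RPKM + 1), with 1 point per library. Con replicates 1 and 2 carry the relation of Hp with S100a8 (r = 0.850, and 0.247 without both), and Lrg1 has an r of 0.212 with S100a8 (0.493 as deviations from group means).

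Serum amyloid A3, the form made outside the liver in macrophages, fat and epithelia, had the widest range of the 7 tested genes. It was 0.89, 1.79 and 0.38 RPKM in Con, 0.56, 2.21 and 2.42 RPKM in A10, and 8.62, 7.97 and 3.01 RPKM in STZ. It was 182.17, 17.77 and 13.47 RPKM in STZ-A10, 0.52, 3 and 3.77 RPKM in A10-FMT, and 4.20, 5.78 and 2.77 RPKM in Con-FMT. All STZ-A10 libraries were above every library of the other groups, and STZ was above Con and A10 with no overlap. STZ overlapped with Con-FMT and A10-FMT.

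In STZ-A10 against A10 the log2 fold change of Saa3 was 3.83 (SE 0.736, limma, adjusted p = 0.0657), and 2.68 without STZ-A10 replicate 1. In STZ-A10 against STZ it was 2.39 (SE 0.736, limma, adjusted p = 0.996), and 1.23 without that library. The STZ libraries lay 1.86 (SE 0.736) above Con on this scale. Saa3 was thus the gene most opposed to Alb, with an r of -0.529, but within groups that r was 0.293.

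Transcripts of other tissues also differed between these groups. The 21 exocrine pancreas genes, all in the table and none at 0 in every library, had summed levels of 7716 to 12130 RPKM in STZ-A10, 1686 to 7552 RPKM in STZ, 26.6 to 2538 RPKM in Con, 57.9 to 978 RPKM in A10, 224 to 28440 RPKM in A10-FMT and 2335 to 3931 RPKM in Con-FMT. Of these, 17 were higher and 0 lower in STZ-A10 than in A10 at an unadjusted p under 0.05 (limma), where 10.2% of all genes passed. Their median log2 fold change was 4.39, against -0.03 over all genes, and none passed the adjusted threshold. The 18 adipose genes summed to 137 to 261 RPKM in STZ-A10, 111 to 162 RPKM in STZ, 131 to 387 RPKM in Con, 272 to 610 RPKM in A10, 132 to 230 RPKM in A10-FMT and 127 to 279 RPKM in Con-FMT, with none at 0 in every library. Adipoq, the adipocyte hormone adiponectin, was 3.80, 0.57 and 0.49 RPKM in STZ-A10, so its highest value there was also in replicate 1. Its mean was 1.62 RPKM in STZ-A10 and 12.46 RPKM in A10. Of the 13 adipose genes tested, 0 were higher and 9 lower in STZ-A10 than in A10 at an unadjusted p under 0.05 (limma). Their median log2 fold change was -1.39 there and 0.34 in STZ-A10 against STZ, where 1 was higher and 0 lower. Saa3 and Adipoq had an r of -0.266 over all libraries and 0.581 as deviations from group means. The part of these tissues in the Saa3 level was not tested. The genes most like Saa3 were Cyp26b1, which degrades retinoic acid (r = 0.854), Wdr4, a subunit of a tRNA methyltransferase (r = 0.854), and Pdgfra, a receptor of mesenchymal cells (r = 0.852).

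Serum amyloid A1 and A2, the circulating forms made chiefly in the liver, were near 0 outside 1 library. Saa1 was 0.15, 5.51 and 0 RPKM in Con and at most 0.15 RPKM in any other group. Saa2 was 0.15, 4.44 and 0 RPKM in Con and likewise at most 0.15 RPKM elsewhere. Both were listed at 0 in every STZ and Con-FMT library. Con replicate 2, the library in question, held 104.59 RPKM of Alb, but Con replicate 3, with 97.95 RPKM of Alb, was listed at 0 for both, as were 2 of the A10-FMT libraries for each gene, including replicate 3 with the highest Alb of the series. Their mutual r of 0.989 rested on that library and was 0.253 without Con replicates 1 and 2. The genes most like both, Ropn1l (r = 0.939 and 0.917), Dbil5 (r = 0.903 and 0.907) and Spa17 (r = 0.893 and 0.896), are known from testis and were named over the same single library.

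The metallothioneins were abundant everywhere and did not follow Alb. Mt1 was 145.47, 111.22 and 78.30 RPKM in Con, 104.49, 98.69 and 85.33 RPKM in A10, and 297.05, 228.44 and 211.02 RPKM in STZ. It was 230.67, 145.02 and 247.80 RPKM in STZ-A10, 159.97, 155.52 and 269.48 RPKM in A10-FMT, and 113.33, 102.66 and 128.43 RPKM in Con-FMT. The STZ libraries were above all libraries of Con, A10 and Con-FMT, A10-FMT was also above those 3 groups, and STZ-A10 reached down to the level of Con.

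Mt2 was 103.88, 80.55 and 57.42 RPKM in Con, 73.75, 72.80 and 58.45 RPKM in A10, and 317.89, 239.93 and 192.53 RPKM in STZ. It was 168.70, 131.07 and 144.01 RPKM in STZ-A10, 150.51, 123.23 and 366.77 RPKM in A10-FMT, and 79.43, 78.60 and 102.00 RPKM in Con-FMT. Every STZ, STZ-A10 and A10-FMT library was above every Con, A10 and Con-FMT library, so this gene divided the groups more cleanly than Mt1.

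The STZ libraries had a log2 fold change of 1.16 (SE 0.252) for Mt1 and 1.63 (SE 0.318) for Mt2 over Con, that is, from 112 ± 33.6 to 246 ± 45.5 RPKM and from 80.6 ± 23.2 to 250 ± 63.3 RPKM (SD, n = 3 each). In STZ-A10 against A10 it was 1.07 (SE 0.252, limma, adjusted p = 0.103) for Mt1 and 1.10 (SE 0.318, adjusted p = 0.180) for Mt2. In Con-FMT against STZ it was -1.08 (limma, adjusted p = 0.665) for Mt1 and -1.50 (adjusted p = 0.434) for Mt2, with no overlap for either. Both had higher values in A10-FMT than in Con-FMT, with 0.72 for Mt1 and 1.13 for Mt2 (limma, adjusted p = 0.204 for both), and these were 0.46 and 0.66 without A10-FMT replicate 3. Of the lymphocyte markers, 11 of 11 had a value below 0 in that comparison (median -0.87, with 6 at an unadjusted p under 0.05), and of the erythroid markers 16 of 16 had a value above 0 (median 0.64, with 2 at an unadjusted p under 0.05), and their part in the metallothionein levels was not tested. Among all genes, the median in A10-FMT against Con-FMT was -0.17 and 23.6% had an unadjusted p under 0.05 (limma). In STZ-A10 against STZ only Mt2 had an unadjusted p under 0.05, at -0.73 (limma, adjusted p = 0.996). Neither gene passed the adjusted threshold in any of these comparisons. The comparisons share the STZ or the Con-FMT libraries and are not independent, and the STZ libraries helped to choose the genes.

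Mt1 and Mt2 had an r of 0.952 over the 18 libraries and 0.867 as deviations from group means. The ratio of Mt2 to Mt1 in RPKM was 0.714, 0.724 and 0.733 in Con and 0.706, 0.738 and 0.685 in A10. It was 1.07, 1.05 and 0.912 in STZ, 0.731, 0.904 and 0.581 in STZ-A10, 0.941, 0.792 and 1.36 in A10-FMT, and 0.701, 0.766 and 0.794 in Con-FMT. The 3 STZ ratios lay above every ratio of Con, A10, STZ-A10 and Con-FMT, although the Mt1 levels of STZ and STZ-A10 overlapped. The ratio was noticed in these data and was not tested. Metallothionein 3 (Mt3), the brain form, was at most 0.37 RPKM.

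**Figure D4:**
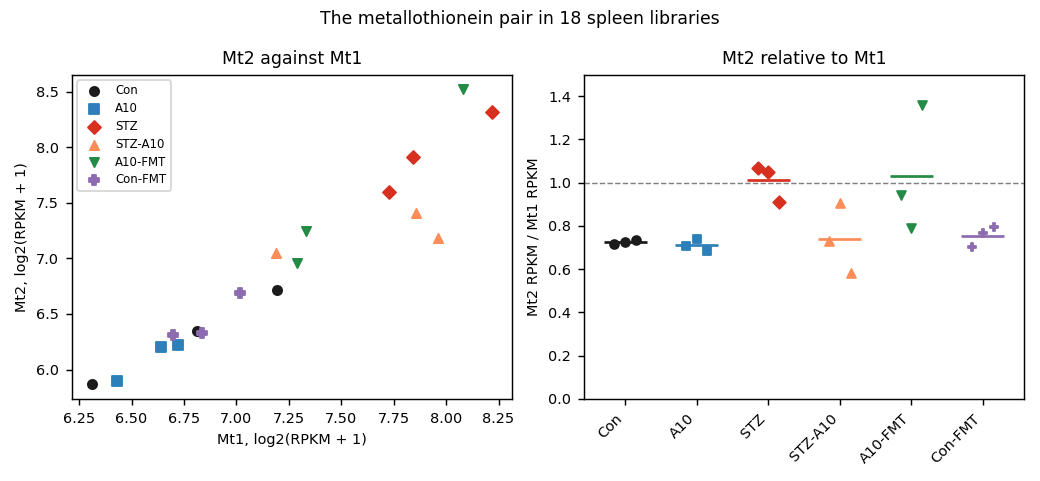
Left, Mt2 against Mt1 as log2(RPKM + 1), with 1 point per library. Right, the ratio of Mt2 to Mt1 in RPKM by group, with the group mean as a line and a dashed line at 1, where the STZ libraries lie at 0.912 to 1.07 and the Con libraries at 0.714 to 0.733.

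The genes most like Mt1 were Rab4a, a GTPase of early endosomes (r = 0.884), Map3k6, a stress kinase (r = 0.884), and Rnf128, an E3 ubiquitin ligase (r = 0.882). Rnf128 was also the gene most like Mt2 (r = 0.934), followed by Gdf3, a growth factor of the TGF-beta family (r = 0.920), and Atp1b2, a subunit of the sodium pump (r = 0.916). Mt1 and Mt2 were also lower where Adipoq was higher, with an r of -0.699 and -0.678 over all libraries and -0.248 and -0.259 as deviations from group means. Lrg1 had an r of 0.689 with Mt1 (rho 0.829), the closest relation between a metallothionein and an acute phase gene.

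In the fit across all 12905 tested genes, the counts of the 7 tested members were set beside those of all genes. Of the members, 1, Orm1, passed the adjusted threshold of 0.05 in STZ against Con, where 0.163% of all genes did. At an unadjusted p under 0.05 there were 6 (Hpx, Orm1 and Hp lower, Saa3, Mt1 and Mt2 higher), where 11.1% of all genes passed, and 5 had no overlap between the libraries, where 12.8% of all genes did. These counts come from a comparison that helped to choose the genes.

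In STZ-A10 against A10, the same contrast in mice given AOS, no member passed the adjusted threshold (limma, 0.0542% of all genes did) and 5 had an unadjusted p under 0.05 (10.2% of all genes), with Orm1 lower and Saa3, Lrg1, Mt1 and Mt2 higher. Of these, the 4 that were higher had no overlap between the libraries, where 22.6% of all genes did. The direction was thus that of STZ against Con for Orm1, Saa3, Mt1 and Mt2. Hp and Hpx had values of 12.2 and 0.917 RPKM in A10 and 17.6 and 0.327 RPKM in STZ-A10. The interaction of streptozotocin and AOS, which tests the difference between both contrasts, called no member (limma, 0% of all genes). An unadjusted p under 0.05 was found for 2 (2.86% of all genes), Orm1 at 1.19 (SE 0.517) and Hp at 1.85 (SE 0.768), each with an adjusted p of 1.00. The Hp interaction was 1.13 without Con replicate 1. The interaction is built in part from STZ against Con and A10 against Con. The values of Orm1 and Hp in both helped to choose the genes, so nothing is read from the interaction counts.

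In A10 against Con no member passed the adjusted threshold (limma, 0.00775% of all genes), 4 had an unadjusted p under 0.05 (5.25% of all genes), all lower in A10 (Hp, Hpx, Orm1 and Lrg1), and 0 were without overlap, where 16.5% of all genes were. The values of Orm1, Hp and Hpx in this comparison helped to choose the genes, so nothing is read from these counts. In STZ-A10 against STZ no member passed (limma, 0.00775% of all genes), 2 had an unadjusted p under 0.05 (2.93% of all genes), and the same 2, Saa3 higher and Mt2 lower, were without overlap, where 8% of all genes were. The STZ libraries helped to choose the genes, so nothing is read from these counts either.

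In A10-FMT against STZ no member passed the adjusted threshold (limma, 0.00775% of all genes) and 2, Hpx and Orm1, had an unadjusted p under 0.05 and were higher, where 17.2% of all genes passed in either direction. Both were also without overlap, where 14.4% of all genes were. These 2 genes were chosen with their values in this comparison known, so nothing is read from these counts. In Con-FMT against STZ no member passed (limma, 0.00775% of all genes), 2 had an unadjusted p under 0.05, Mt1 and Mt2 (5.24% of all genes), and 3 were without overlap, where 13.2% of all genes were: Mt1, Mt2 and Lrg1, all lower in Con-FMT. The members were chosen with the levels of these STZ libraries known, so nothing is read from these counts. In A10-FMT against Con-FMT no member passed (limma, 0% of all genes), and 4, Hpx, Orm1, Mt1 and Mt2, were higher at an unadjusted p under 0.05 and without overlap. Over all genes, 23.6% passed that limit (450 higher and 2590 lower) and 29.3% were without overlap (691 higher and 3088 lower). Hpx and Orm1 were chosen with their A10-FMT levels known, so nothing is read from these counts for them. The median of all genes was -0.149 in A10-FMT against STZ and -0.166 in A10-FMT against Con-FMT on the log2 scale. The members named as higher thus lay further above that median than above 0. Others lay below it, namely Saa3 (-1.19), Lrg1 (-0.52), Mt2 (-0.37) and Mt1 (-0.36) in A10-FMT against STZ. Saa3 was also below it in A10-FMT against Con-FMT (-0.73). The comparisons of both transplant groups with STZ share the STZ libraries.

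**Figure D5:**
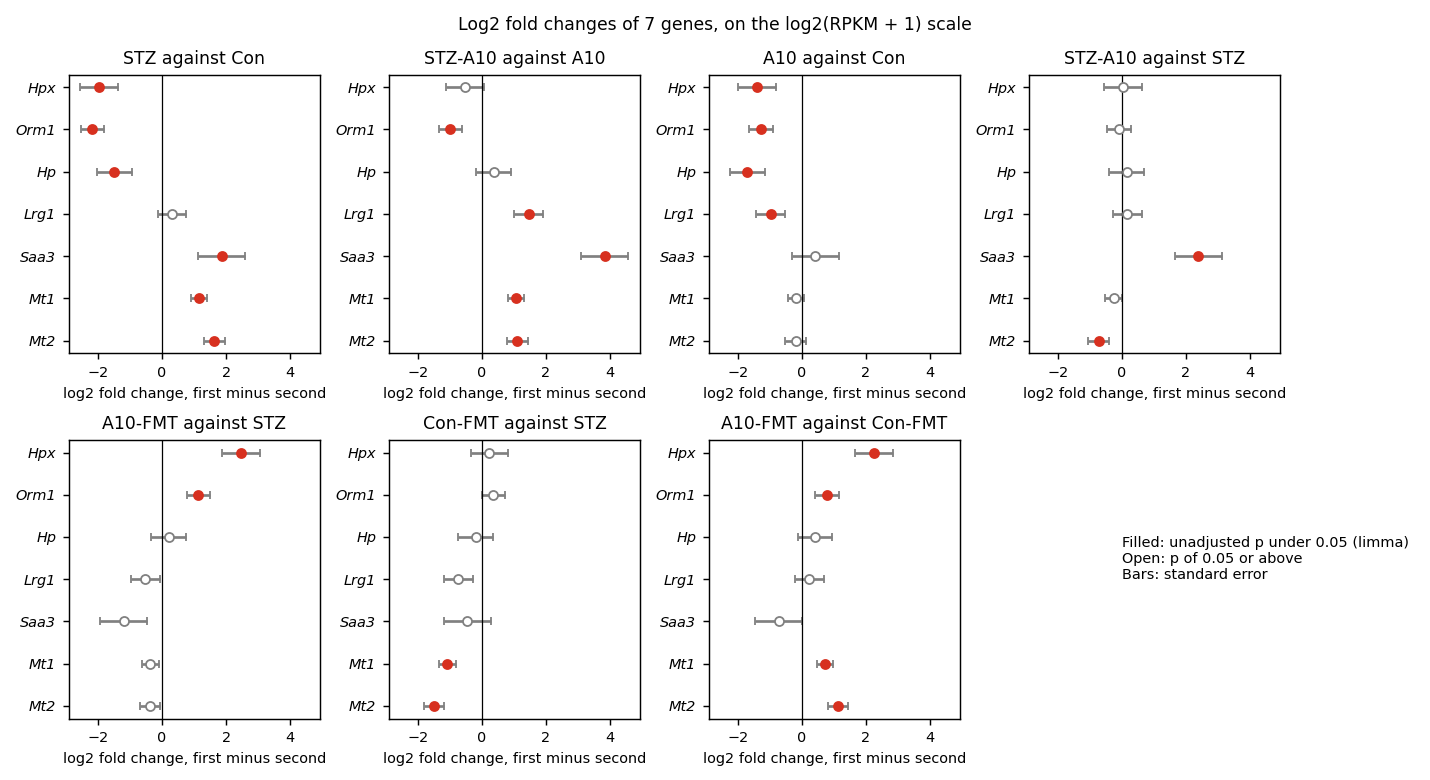
Log2 fold changes of the 7 tested genes in 7 comparisons on the log2(RPKM + 1) scale, with the standard error as bars and filled points at an unadjusted p under 0.05 (limma). Hpx and Orm1 are higher in A10-FMT than in STZ and Con-FMT, Mt1 and Mt2 are lower in Con-FMT than in STZ, and Saa3 lies at 3.83 in STZ-A10 against A10.

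For the gene lists that follow, the median log2 fold change of all genes was -0.01 in STZ against Con, -0.03 in STZ-A10 against A10, 0.05 in A10 against Con, 0.03 in STZ-A10 against STZ, -0.15 in A10-FMT against STZ, 0.00 in Con-FMT against STZ and -0.17 in A10-FMT against Con-FMT. At an unadjusted p under 0.05, the A10-FMT comparisons were mostly downward over all genes, with 252 genes higher and 1964 lower against STZ and 450 higher and 2590 lower against Con-FMT. In the other comparisons of the lists these were 597 and 831 in STZ against Con, 489 and 828 in STZ-A10 against A10, 460 and 217 in A10 against Con, 165 and 213 in STZ-A10 against STZ, and 343 and 333 in Con-FMT against STZ.

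Further acute phase genes include fibrinogens and serpins of the liver and the neutrophil proteins S100a8, S100a9 and Lcn2. Of 25 such genes, 24 were in the table and 18 were tested. None passed the adjusted threshold in any comparison (limma). In STZ against Con 11 were lower and 1, Serpina3n, was higher at an unadjusted p under 0.05 (median log2 fold change -0.98), and in A10-FMT against STZ 5 were higher and 4 lower (median 0.18). In STZ-A10 against A10 there were 3 higher and 2 lower (median -0.15), in A10 against Con 1 and 8 (median -0.69), in STZ-A10 against STZ 0 and 0 (median 0.14), in Con-FMT against STZ 0 and 1 (median 0.18), and in A10-FMT against Con-FMT 5 and 2 (median 0.24). S100a8, S100a9 and Lcn2 are also on the neutrophil list, and Fgb and Fgg on the hepatocyte list. The plasma pentraxins Crp and Apcs reached at most 0.74 and 0.89 RPKM.

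Of the interleukin 6 and STAT3 pathway, all 23 genes were in the table and 19 were tested, with none past the adjusted threshold in any comparison (limma). Il6 itself was at most 0.73 RPKM. At an unadjusted p under 0.05, 3 were higher and 0 lower in STZ than in Con (median 0.02), and in STZ-A10 against A10 5 were higher and 0 lower (median 0.13). In A10-FMT against STZ 0 were higher and 7 lower (median -0.31, against -0.15 over all genes), in Con-FMT against STZ 0 and 3 (median -0.15), in A10-FMT against Con-FMT 1 and 8 (median -0.16, against -0.17 over all genes), in A10 against Con 1 and 0 (median 0.06), and in STZ-A10 against STZ 0 and 0 (median 0.13).

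Of 20 further genes of metal handling and targets of MTF1, 19 were in the table and 18 were tested, and none passed the adjusted threshold in any comparison (limma). With an unadjusted p under 0.05, 2 were higher and 0 lower in STZ than in Con (median 0.03), in STZ-A10 against A10 1 and 0 (median 0.03), and in Con-FMT against STZ 0 and 1 (median -0.07). In A10 against Con there were 0 and 0 (median 0.00), in STZ-A10 against STZ 0 and 1 (median -0.04), in A10-FMT against STZ 0 and 2 (median -0.06), and in A10-FMT against Con-FMT 0 and 2 (median 0.10). The list holds transporters of zinc and copper beside targets of MTF1, and the part of metals in the Mt1 and Mt2 levels was not tested.

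The 16 glucocorticoid targets, all tested, held 2 genes past the adjusted threshold. In STZ against Con the period gene Per1 rose by 1.04 (SE 0.177, limma, adjusted p = 0.0405) and the cell cycle inhibitor Cdkn1a by 1.06 (SE 0.163, adjusted p = 0.0267) on the log2 scale. Of 28 alternatives, the call was lost in 19 for Per1 (log2 fold change 0.63 to 1.33, adjusted p 3.81e-08 to 0.329 over all 28) and in 10 for Cdkn1a (0.97 to 1.24, adjusted p 3.76e-08 to 0.287), both with only the compared groups, with median centring, with the replicate block, with log2 Alb or log2 S100a8 as a covariate and with any of 4 libraries left out, namely replicate 2 of Con, of STZ or of STZ-A10, or replicate 1 of Con-FMT. At an unadjusted p under 0.05, 9 were higher and 1 lower in STZ than in Con (median 0.47), 10 were higher and 0 lower in STZ-A10 than in A10 (median 0.64), and 0 were higher and 6 lower in Con-FMT than in STZ (median -0.43), the comparisons in which the metallothioneins differed in the same directions. In A10-FMT against STZ, where Mt1 and Mt2 were not past this limit, 2 were higher and 12 lower (median -0.65, against -0.15 over all genes). In A10 against Con and in STZ-A10 against STZ there were 0 and 0 (medians 0.05 and 0.18), and in A10-FMT against Con-FMT, where Mt1 and Mt2 were higher, there were 2 and 2 (median -0.14). The part of glucocorticoids in the metallothionein levels was not tested.

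Of 11 partners of heme and hemoglobin clearance, among them receptors of the haptoglobin and hemopexin complexes, all were tested and none passed the adjusted threshold in any comparison (limma). In STZ against Con 2 were higher and 0 lower at an unadjusted p under 0.05 (median 0.24), and in STZ-A10 against A10 4 and 0 (median 0.12). In A10-FMT against STZ 0 were higher and 5 lower (median -0.15, the same as over all genes), in Con-FMT against STZ 0 and 3 (median -0.05), in A10 against Con 1 and 0 (median -0.08), in STZ-A10 against STZ 0 and 0 (median -0.06), and in A10-FMT against Con-FMT 1 and 1 (median -0.03). Cd163, the macrophage receptor of haptoglobin and hemoglobin, was 3.54 ± 1.49 RPKM in STZ and 1.33 ± 0.0808 RPKM in Con (SD, n = 3 each). It was 2.74 ± 0.997 RPKM in STZ-A10, 1.74 ± 0.216 RPKM in A10-FMT, 1.40 ± 0.168 RPKM in Con-FMT and 1.24 ± 0.604 RPKM in A10 (SD, n = 3 each). The 14 red pulp macrophage markers, which include Cd163, moved the same way between STZ and Con, with summed levels of 1054 to 1112 RPKM in STZ and 761 to 978 RPKM in Con. Of these, 10 were higher and 0 lower in STZ than in Con at an unadjusted p under 0.05 (median 0.43), and 0 were higher and 10 lower in A10-FMT than in STZ (median -0.49, against -0.15 over all genes), with none past the adjusted threshold (limma). Their part in the levels of Cd163 and the clearance partners was not tested.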

How the data were processed

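The authors deposited RPKM values per gene for 18 spleen libraries, made from poly(A) RNA sequenced on an Illumina HiSeq instrument. The methods name SOAPaligner against reference genes, and the submitters' processing notes name Bowtie 0.12.2 and mm10. Of 19326 rows, 6 with 3 repeated names were left out. Genes with at least 1 RPKM in at least 3 libraries (12905) were tested with limma 3.58.1 (R 4.3.3), with an intensity trend, on log2(RPKM + 1), with 1 coefficient per group over all 18 libraries. The tests were two-sided with Benjamini-Hochberg adjustment over all genes and a threshold of 0.05. The script was tested on simulated data. Fold changes understate the change of low genes. Nothing states that the libraries of a group came from separate cages, so p-values measure the spread between these libraries. The paper states that the intestinal content of each donor group was pooled. The libraries of A10-FMT or of Con-FMT are therefore not replicates of the donor microbiota, and p-values do not measure variation between donor pools.

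Every member was described. A fold change was printed where the unadjusted p was under 0.05, for each member the 3 genes with the highest Pearson r were named, and from lists the genes past the threshold were named, with S100a8, Adipoq and Alb as reference markers. Serpina3n, Cd163, Il6, Crp and Apcs were named outside this rule, after their values were seen. The members and the gene lists were chosen with earlier results of these data known. Alternatives were another pseudocount, no filter, quantile normalization, median centring, limma without the trend, array weights, groups fitted alone, a replicate block, log2 Alb or log2 S100a8 as a covariate, and each library left out. The depth in reads is unknown, and no interval for single values is given.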

Additional observations from a re-analysis of the deposited data

How the results depend on the processing

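Over 756 alternative values of the 27 named log2 fold changes, 691 kept their direction and their side of the adjusted threshold (limma), 47 passed it where the reported value did not, 16 no longer passed it and 2 turned their sign. Those 2 were Hpx with log2 Alb as a covariate, at 0.33 in STZ against Con and -0.069 in A10-FMT against STZ, in a fit that removes what varies with Alb. In STZ against Con the call of 1 member was 2 with a pseudocount of 0.1, 7 with array weights, and 0 with no low-value filter, quantile normalization, median centring, only the compared groups, the replicate block, log2 Alb or log2 S100a8 as a covariate. It was 0 to 4 with each library left out. Orm1 was the member lost, and it was lost without Con replicate 2, STZ replicate 1 or 2, A10 replicate 1, STZ-A10 replicate 2 or 3, or any Con-FMT library. It was 4 without Con replicate 1 (Orm1, Hpx, Mt1 and Mt2), 3 without STZ replicate 3 or A10-FMT replicate 3 (Orm1, Mt1 and Mt2), 2 without Con replicate 3 (Orm1 and Hp) and 2 without A10-FMT replicate 2 (Orm1 and Mt2).

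Array weights called 5 members in STZ-A10 against A10, 4 in A10 against Con, 3 in STZ-A10 against STZ, 6 in A10-FMT against STZ, 3 in Con-FMT against STZ, 4 in A10-FMT against Con-FMT and 4 in the interaction, each in place of 0, and the estimation of the weights gave a convergence warning. In STZ-A10 against A10, quantile normalization and median centring each called 1 (Saa3) and the compared groups alone called 1 (Mt2). With each library left out this count was 0 to 2, with Saa3 and Mt2 called without A10-FMT replicate 3 and Saa3 without STZ replicate 3. The other counts with a library left out were 0 to 1 in A10 against Con (Hp without Con replicate 3), 0 to 1 in A10-FMT against STZ (Hpx without Con replicate 1), 0 to 1 in Con-FMT against STZ (Mt2 without A10-FMT replicate 3), 0 to 3 in A10-FMT against Con-FMT (Hpx, Mt1 and Mt2 without A10-FMT replicate 2), and 0 to 0 in STZ-A10 against STZ and in the interaction. The causes were not tested.

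The count of 2 members following Alb became 1, with Hpx alone, with deviations from group means and with the hepatocyte list as the reference, and it was 1 to 2 with each library left out, the 1 being without Con replicate 2. With the replicate number as a block, 0 members passed in any comparison and the log2 fold change of Orm1 in STZ against Con stayed at -2.17. Libraries of the same number did not deviate together in every pair of any comparison (r of 0.571, 0.044 and 0.429 in STZ-A10 against STZ, where they were highest). Such values cannot exclude a batch shared by some libraries, and what the replicate numbers stand for is not known. Depth in reads is unknown, and levels under about 1 RPKM, such as those of Saa1, Saa2, Hpx and Orm1 in STZ, rest on few reads.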
